A study of Mus musculus with 384 samples.

Results

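Collagens, laminins and integrins are the genes of the extracellular matrix and of the receptors that hold cells to it, and they were followed here in formative stem (FS) cells and epiblast-derived stem cells (EpiSCs) of the mouse. A gene was taken as a member when its row in the table of raw counts had a protein-coding record in GENCODE M21 and its symbol was that of a numbered collagen α chain, a laminin α, β or γ chain, or a numbered integrin α or β chain. This gave 73 genes, 43 collagens, 11 laminins and 19 integrins, among 17174 protein-coding genes and 31617 genes in all. The rule used names only and no measured value. Itgav and the other integrin α chains with a letter in their name lie outside it and are given where they pair with a member. Itga2, Itgb2l, Col19a1 and Col21a1 are not analysed here.

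Single cells were sorted into wells and their mRNA copied at full length by Smart-seq2, with 96 cells from each of 4 lines. 5ar1 and 5ar2 are FS lines grown in AloXR (A3XR in the labels), a medium with low activin, XAV939, which inhibits tankyrases, and BMS493, an inverse agonist of retinoic acid receptors. The EpiSC line AFX6 was grown in AFX (activin, Fgf2 and XAV939) and the EpiSC line AF32 in AF (activin and Fgf2). The replicate of a comparison is the line, so FS cells have 2 and each EpiSC medium has 1. Line and medium cannot be told apart between AFX6 and AF32, nor cell state and medium between FS cells and EpiSCs. The labels do not give the plate of a cell, so its part cannot be told apart either. The strain of each line is not given in the sources used here, no line is labelled as genetically modified, and the study's methods give fibronectin as the coating of the dishes in which the cells grew.

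Collagens are triple helices of α chains, some of which form fibrils and others the network of basement membranes. Laminins are trimers of an α, a β and a γ chain, named by the numbers of their chains, and they carry the sheet on which epithelial cells, the epiblast included, rest. Integrins are pairs of an α and a β chain in the cell membrane: α3β1, α6β1 and α6β4 bind laminin, α5β1 and the αv pairs bind fibronectin and related proteins, and α1β1, α2β1, α10β1 and α11β1 bind collagen. mRNA of every chain of a complex in 1 cell is a condition for making it there, not a measure of the protein. A chain not found in a cell can be one whose mRNA was not captured. Shares of cells with a complete complex are thus shares of detection.

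In summed CPM, Itgb1, Lama5, Itgb5 and Col8a1 stood higher in both EpiSC lines than in both FS lines. For Itgb5 the lower EpiSC line was only 1.06-fold above the higher FS line. Lamb2 and Lamc1 had the same order and are not shown. Upstream sequences of the 4 genes from RefSeq (build GRCm38.p6) are given so that genes with that pattern can be read side by side. None of the 4 windows holds an annotated exon of GENCODE M21. Each is the 250 bases before the transcript start, 5′ to 3′ on the strand of the gene, with GC boxes (GGGCGG or its reverse complement CCGCCC) in capitals.
Itgb1 (chr8:128685404-128685653, plus strand): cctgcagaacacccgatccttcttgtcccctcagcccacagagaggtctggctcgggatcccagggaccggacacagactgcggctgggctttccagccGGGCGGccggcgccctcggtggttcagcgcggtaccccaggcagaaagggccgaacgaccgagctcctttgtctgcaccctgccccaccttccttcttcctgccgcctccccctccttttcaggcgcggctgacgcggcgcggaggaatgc
Lama5 (chr2:180225860-180226109, minus strand): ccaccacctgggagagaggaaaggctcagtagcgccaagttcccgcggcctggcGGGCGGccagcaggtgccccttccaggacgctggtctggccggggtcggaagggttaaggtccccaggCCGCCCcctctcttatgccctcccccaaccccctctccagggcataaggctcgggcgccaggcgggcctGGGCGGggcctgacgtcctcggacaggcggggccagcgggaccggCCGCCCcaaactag
Itgb5 (chr16:33829415-33829664, plus strand): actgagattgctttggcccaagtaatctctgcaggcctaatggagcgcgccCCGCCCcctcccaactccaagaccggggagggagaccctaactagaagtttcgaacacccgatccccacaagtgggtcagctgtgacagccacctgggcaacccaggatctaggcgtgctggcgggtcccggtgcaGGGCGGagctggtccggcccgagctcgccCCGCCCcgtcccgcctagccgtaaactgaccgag
Col8a1 (chr16:57754738-57754987, minus strand): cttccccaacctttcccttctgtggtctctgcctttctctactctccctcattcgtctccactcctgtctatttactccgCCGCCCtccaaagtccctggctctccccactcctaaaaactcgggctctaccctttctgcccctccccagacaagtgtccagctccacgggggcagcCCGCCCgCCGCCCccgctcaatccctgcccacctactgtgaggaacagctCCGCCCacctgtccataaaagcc
GC boxes numbered 1 in Itgb1, 4 in Lama5, 3 in Itgb5 and 4 in Col8a1. Of 32851 windows of this length in the table, 32.7% hold a GC box, 33.8% a CCAAT box (CCAAT or ATTGG) and 12.4% a TATA box (TATAAA or TTTATA) on either strand, with overlapping matches counted. The 4 windows shown hold 0 CCAAT boxes and 0 TATA boxes. Windows of members without the pattern are not shown, so nothing about the pattern is read from these motifs. GC content ran from 60.8% in Col8a1 to 72.4% in Lama5. In all, 53 of the 73 members were matched to the table.

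Cells with at least 3000000 counts were kept, 326 of 384, with 90, 90, 66 and 80 cells in 5ar1, 5ar2, AFX6 and AF32. Counts per kept cell ran from 3022666 to 6686007, and the median number of genes with a count was 11371 and 11567 in the FS lines and 10328 and 10330 in the EpiSC lines. The part of this gap in the shares of cells given below was not tested. Thinning evens out counts only, whose median per cell was 4811003, 4835258, 5069883 and 4401633 in 5ar1, 5ar2, AFX6 and AF32. Levels are counts per 1000000 counts (CPM), from the counts summed over the kept cells of a line, and levels of different genes are compared only per kilobase (kb) of exon. Pou5f1, the transcription factor that marks pluripotent cells, reached 5 CPM in 97.5% to 98.9% of cells of each line. The defining factors of extraembryonic endoderm, a tissue rich in laminin and collagen IV, were near 0: Gata4, Gata6, Sox7 and Sox17 reached at most 0.849 CPM in any line, and the 9 of 11 listed markers in the table summed to between 4.30 CPM in AFX6 and 15.0 CPM in AF32, with a median cell at 0 in all 4 lines. Foxa2, which is on that list but also marks definitive endoderm, stood at 7.91 CPM in AF32 and at 1.69 CPM or less in the other lines. The 5 of 6 listed fibroblast markers in the table summed to between 11.8 and 17.4 CPM. The 5 of 6 listed primitive streak and mesoderm markers in the table summed to 24.3 CPM in 5ar1 and 0.683 in 5ar2, and to 1.84 in AFX6 and 45.0 in AF32. Their defining gene T was at 39.1 CPM in AF32, where 1 cell held 99.1% of its counts, and at 0.382 CPM or less in the other lines, whereas Hand1 made up 23.5 CPM of the 5ar1 sum. The 5 listed neural markers summed to 338 and 134 CPM in the FS lines and to 16.6 and 90.0 CPM in AFX6 and AF32, mostly from the tubulin gene Tubb3, while the defining factors Sox1 and Pax6 reached at most 8.36 CPM (Sox1 in AF32) and 4.13 CPM (Pax6 in AFX6). The part of these markers in the levels of members was not tested. Sums are over many cells, so fewer cells with a gene and less of it per cell are told apart below by the share of cells.

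Of the 73 members, 19 had a mean of the 4 lines of at least 5 CPM (9 collagens, 5 laminins and 5 integrins). Another 12 (6 collagens, 2 laminins and 4 integrins) fell under that mean but reached 5 CPM in 10% or more of a line's cells. The other 42 did neither. Their highest mean was 3.24 CPM (Itga2b, singled out after its values were seen), 33 of them had a mean under 1 CPM, and Lamc3 and Col6a6 had 0 counts in all 326 cells, which allows up to 0.00902 CPM in AFX6 and less in the other lines. A cell held a median of 10 members at 5 CPM or more in 5ar1, 12 in 5ar2, and 9 in each EpiSC line. Summed over the 73 genes, members took 704 and 768 CPM in the FS lines and 1158 and 976 CPM in the EpiSC lines. Integrins were the largest family per kb, with 80.8 and 88.4 CPM per kb in the FS lines and 135 and 123 in the EpiSC lines. Most of this sum was Itgb1, at 51.0, 54.9, 98.0 and 95.4 CPM per kb in 5ar1, 5ar2, AFX6 and AF32. The integrin α chains of the rule summed to 21.6, 25.8, 26.9 and 17.5 CPM per kb and did not separate the groups. Laminins stood at 15.8 and 12.6 CPM per kb in the FS lines against 36.6 in AFX6 and 21.0 in AF32. Collagens did not separate the groups, at 27.3, 35.3, 30.9 and 33.2 CPM per kb in 5ar1, 5ar2, AFX6 and AF32.

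**Figure D1:**
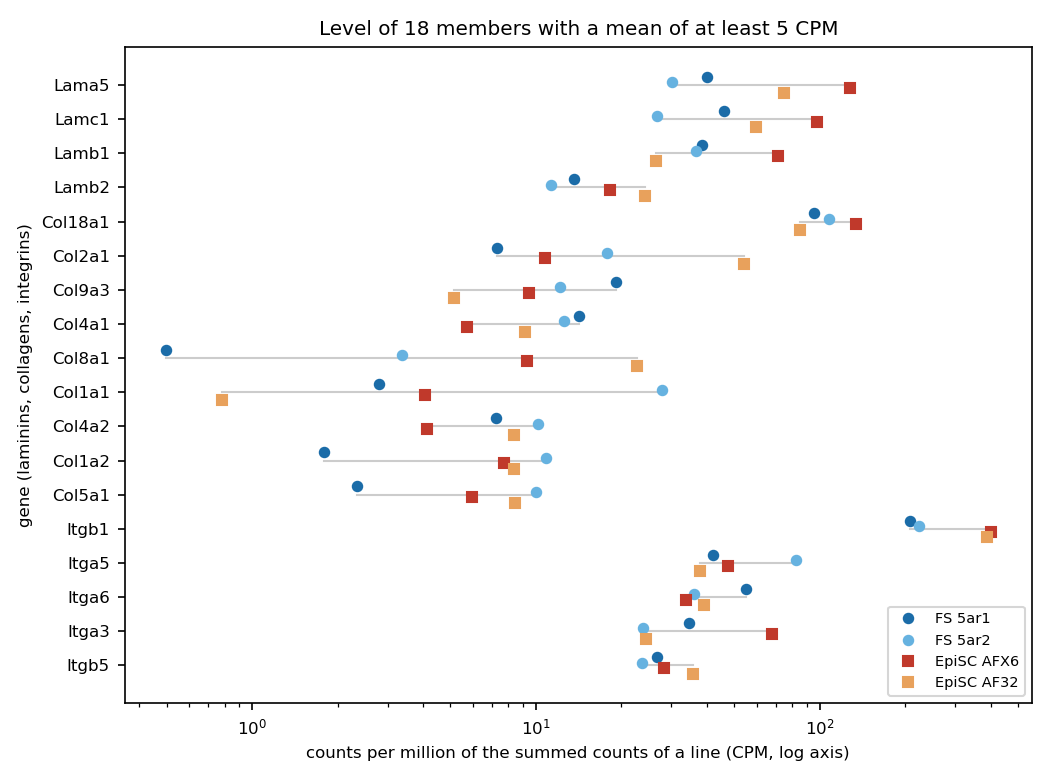
Level of 18 of the 19 members with a mean of at least 5 CPM, in CPM of the summed counts of a line on a log axis, with circles for FS lines, squares for EpiSC lines and a grey line for the range. Both squares of Itgb1 and of Lama5 lie to the right of their circles, and Col8a1 and Col1a1 span wide ranges.

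FS cells and EpiSCs were compared by edgeR's quasi-likelihood test on summed counts, 2 lines against 2, over 22606 genes. No gene passed (0%, with an adjusted p under 0.05 and a log2 fold change beyond 1.4 in either direction), so 0 of the 62 members tested passed. At an unadjusted p under 0.05, 16.1% of all genes and 8 of 62 members (12.9%) were found, 4 of them higher in FS cells and 4 in EpiSCs, a share below the background. The smallest p of a member was that of Itgb1. DESeq2, run on all 31617 genes with the 73 members included, called 1806 genes and 5 members (Lama5, Col8a1, Col7a1, Col24a1 and Itga4). No excess of members is read from these 5. By limma, 1 gene and 0 members were called. Col24a1 and Itga4 were low, and Itga4 had 31 and 252 counts in the FS lines and 0 in both EpiSC lines. The median log2 fold change, FS minus EpiSC, was -0.01 over all genes and -0.29 over the members. The differences between the groups below are therefore given as values of 4 lines.

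Among the ligands, the laminin chains are taken first. Lama5, the α chain of laminin-511 and laminin-521 (chr2:180176373-180225859), stood at 40.2 CPM in 5ar1 and 30.1 in 5ar2, and at 127 in AFX6 and 74.5 in AF32. In single cells it ranged from 0 through a median of 24.7 to 248 CPM in 5ar1, from 0 through 22.1 to 191 in 5ar2, from 0 through 107 to 446 in AFX6 and from 0 through 64.1 to 304 in AF32. The 2 EpiSC lines thus lay above the 2 FS lines in sum and in median cell, while single cells of all 4 lines overlapped. The mean was 35.2 ± 7.11 CPM (SD, n = 2 lines) in FS cells and 101 ± 37.4 CPM (SD, n = 2 lines) in EpiSCs, a fold of 2.87, and the lower EpiSC line was 1.85-fold above the higher FS line. edgeR gave a log2 fold change of -1.54 (SE 0.364) with an adjusted p of 0.190, and DESeq2 an adjusted p of 0.00341. The share of cells with at least 5 CPM was 72.2% and 71.1% in the FS lines and 86.4% and 75.0% in the EpiSC lines.

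Lamc1, the γ chain that most laminins share, showed the same order of groups at a smaller margin. It stood at 45.9 CPM in 5ar1 and 26.7 in 5ar2, and at 98.0 in AFX6 and 59.7 in AF32, so that the lower EpiSC line was 1.30-fold above the higher FS line, and its log2 fold change of -1.13 (SE 0.414) had an adjusted p of 0.306 by edgeR. Lamb1, the β chain of laminin-511, did not separate the groups. It stood at 38.4, 36.7, 71.2 and 26.4 CPM in the same order of lines, with AFX6 above and AF32 below both FS lines. Only 33.8% of AF32 cells reached 5 CPM of Lamb1 against 65.2% to 71.1% of the cells of the other lines, and its median AF32 cell was at 0.231 CPM. Lamb2, the other common β chain, was at 13.6 and 11.3 CPM in the FS lines and at 18.2 and 24.3 CPM in AFX6 and AF32. Per kb, Lamb2 in AF32 (3.99 CPM per kb) was above Lamb1 (2.66 CPM per kb), whereas Lamb1 was above Lamb2 in the other 3 lines.

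Lama1 and Lama4 were low. Lama1 of laminin-111 was highest in 5ar2 (2.71 CPM, 10.0% of cells) and was carried by 1 cell in AFX6, which held 99.8% of its 1.33 CPM. Lama4, found around blood vessels, ran from 0.513 CPM in 5ar1 to 4.64 CPM in AF32.

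**Figure D2:**
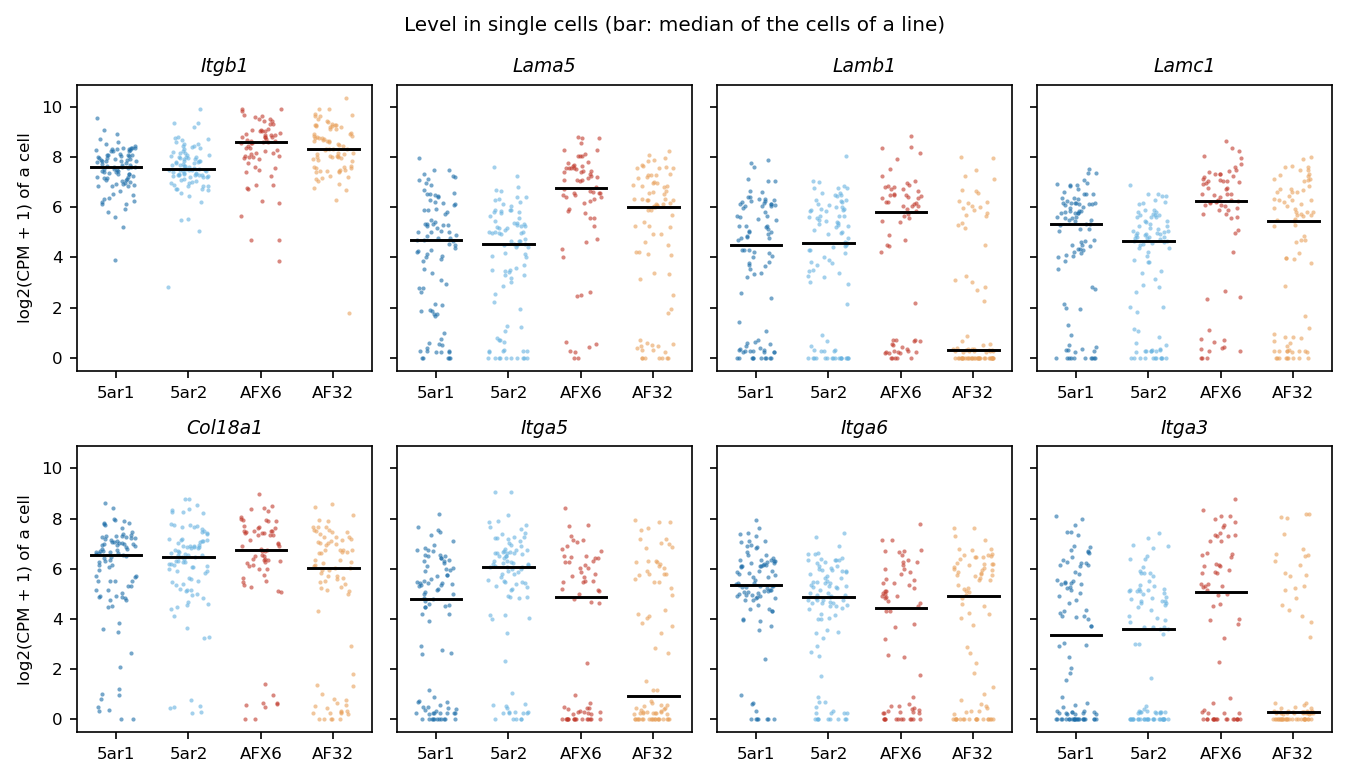
Level of 8 members in single kept cells by line, in log2(CPM + 1), with each point a cell and each bar the median cell. Itgb1 is present in nearly every cell, Lama5 and Lamc1 have higher medians in AFX6 than in the FS lines, and the medians of Lamb1, Itga5 and Itga3 in AF32 lie near 0.

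Col18a1 was the main collagen gene of all 4 lines. It encodes collagen XVIII, a basement membrane collagen that carries heparan sulfate and whose end fragment is endostatin (chr10:77052178-77166548). It stood at 95.1 CPM in 5ar1 and 108 in 5ar2, and at 134 in AFX6 and 85.0 in AF32, and reached 5 CPM in 88.9%, 93.3%, 86.4% and 72.5% of cells. The 2 EpiSC lines lay on either side of the FS lines, and the log2 fold change was -0.12 (SE 0.298, edgeR adjusted p 0.919). Per kb, Col18a1 led the collagens in 65.6% of 5ar1 cells, 77.8% of 5ar2 cells, 71.2% of AFX6 cells and 51.2% of AF32 cells.

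Collagen IV is the network-forming collagen of basement membranes, and its common form holds 2 α1 chains and 1 α2 chain. The genes of these chains, Col4a1 and Col4a2, start 21 bases apart on opposite strands of chromosome 8 in the RefSeq table. Col4a1 stood at 14.1 and 12.5 CPM in the FS lines and at 5.74 and 9.15 CPM in AFX6 and AF32, so the lower FS line was 1.37-fold above the higher EpiSC line. The test gave a log2 fold change of 0.84 (SE 0.384, edgeR adjusted p 0.402). Col4a2 did not separate the groups, at 7.23, 10.2, 4.15 and 8.35 CPM. Its 2.01-fold higher level in AF32 than in AFX6 fell under 2-fold when CPM were scaled by TMM, or divided by the median fold of its chromosome. The genes of chromosome 8 stood at a relative level of 1.20 in AF32, 0.938 in AFX6 and 0.939 and 0.915 in 5ar1 and 5ar2. Only 10.0% and 16.7% of FS cells, and 4.55% and 5.00% of AFX6 and AF32 cells, reached 5 CPM of both chains. Cells with a Col4a1 level were not regularly those with Col4a2: Spearman's rho among cells was 0.14, 0.18, 0.30 and 0.17 in 5ar1, 5ar2, AFX6 and AF32, a description over cells that differ in library depth.

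Col8a1, the α1 chain of the short-chain collagen VIII of Descemet's membrane and vessel walls, was the only member of the 19 whose level in both EpiSC lines was at least 2-fold above both FS lines, a pattern shown by 3.26% of the 10120 protein-coding genes that passed the same mean of 5 CPM. It stood at 0.497 CPM in 5ar1 and 3.37 in 5ar2, and at 9.29 in AFX6 and 22.7 in AF32. Few cells carried it: 3.33%, 5.56%, 9.09% and 20.0% of cells reached 5 CPM. A single cell held 74.3% of the 5ar2 counts, and without the highest cell of each line the levels were 0.284, 0.875, 5.79 and 18.6 CPM, in the same order. edgeR gave a log2 fold change of -3.04 (SE 1.12) with an adjusted p of 0.312, and DESeq2 an adjusted p of 0.0167.

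Col2a1, the fibrillar collagen of cartilage and notochord, was mainly an AF32 gene in sum. It stood at 7.32 CPM in 5ar1 and 17.9 in 5ar2, and at 10.8 in AFX6 and 54.0 in AF32, and its single cells ran up to 955 CPM in AF32 against 126 CPM or less in the other lines. That highest cell held 25.3% of the AF32 counts, and without it AF32 stood at 40.9 CPM, against 16.6 CPM in 5ar2. The share of cells with at least 5 CPM stood at 31.1% in 5ar1 and 65.6% in 5ar2, and at 30.3% in AFX6 and 56.2% in AF32, so 5ar2 and AF32 had the more cells of each group. The summed streak and mesoderm markers were also highest in AF32, but lowest in 5ar2. In AF32 their sum came mostly from T in 1 cell, as given above. The AF32 cell with the highest Col2a1 had 0 CPM of these markers. The part of the markers in the Col2a1 level was not tested. Col9a3, a chain of the collagen IX that coats type II fibrils, showed another order, with 19.2 and 12.1 CPM in the FS lines and 9.42 and 5.13 CPM in AFX6 and AF32. In the FS lines 37.8% of cells reached 5 CPM, against 9.09% and 7.50% in AFX6 and AF32, where 1 cell held 45.9% and 60.4% of the counts. Without the highest cell of each line, both FS lines were at least 2-fold above both EpiSC lines (17.6 and 11.1 against 5.18 and 2.06 CPM). With all cells the lower FS line was 1.29-fold above the higher EpiSC line, and the edgeR adjusted p was 0.396. Exons of Tcfl5 on the opposite strand cover 6.07% of the exon bases of Col9a3.

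The remaining fibrillar collagens rested on few cells. Col1a1 and Col1a2, the chains of the collagen I of bone and skin, stood at 27.7 and 10.9 CPM in 5ar2, where 1 cell held 82.8% and 83.5% of their counts, and without the highest cell they stood at 4.82 and 1.82 CPM. In the other lines Col1a1 was at 2.81 CPM in 5ar1, 4.08 in AFX6 and 0.784 in AF32, and Col1a2 at 1.79, 7.74 and 8.38 CPM. Col5a1, a chain of the collagen V that nucleates such fibrils, was at 2.35, 10.0, 5.97 and 8.41 CPM in 5ar1, 5ar2, AFX6 and AF32, and 31.1% of 5ar2 cells reached 5 CPM. The cell that carried Col1a1 and Col1a2 in 5ar2 was the same cell, with 1867 and 738 CPM, and it also held the highest Col8a1 (203 CPM) and Itgb1 (960 CPM) of its line. It was low in pluripotency genes, with 2.05 CPM of Pou5f1 and 103 CPM over the 6 pluripotency markers against a median of 2923 CPM in the other 5ar2 cells. Its fibroblast markers summed to 88.0 CPM, against a median of 3.50 CPM in those cells, and its fibronectin gene Fn1 stood at 1405 CPM. The AF32 cell with the highest Col2a1 likewise had 2.56 CPM of Pou5f1, but 0 CPM of the listed fibroblast and streak markers. In all, 6 of the 326 cells were under 5 CPM of Pou5f1, 2 each in 5ar1 and AF32 and 1 each in 5ar2 and AFX6. Without them the 5ar2 levels of Col1a1, Col1a2 and Col8a1 were 4.82, 1.82 and 0.875 CPM and the AF32 level of Col2a1 was 38.0 CPM, while Itgb1 stood at 203, 215, 403 and 390 CPM.

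**Figure D3:**
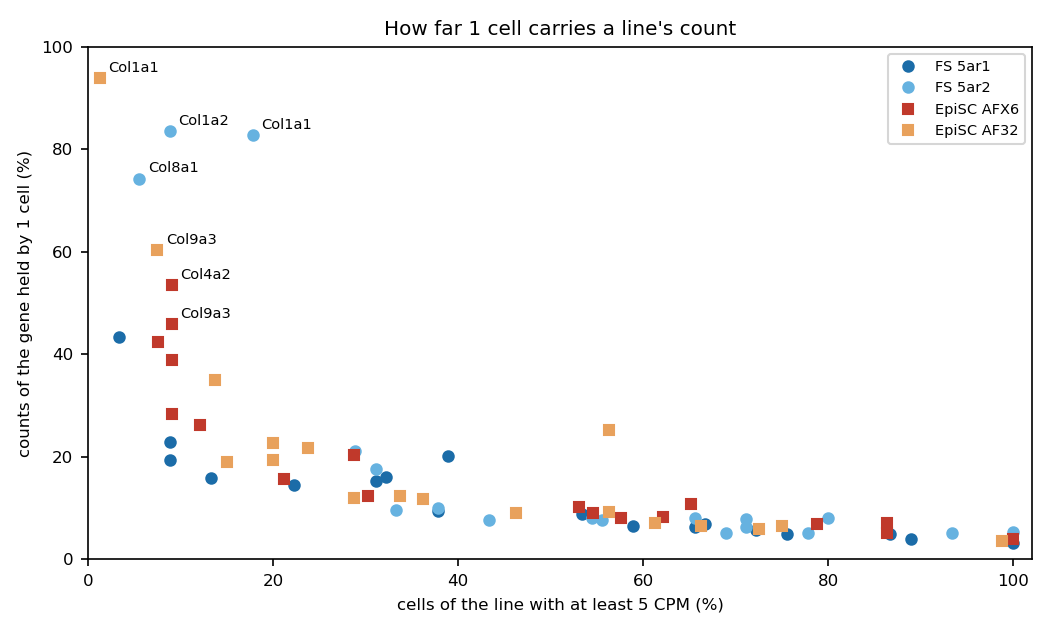
Share of a line's counts of a gene that 1 cell held, against the share of cells of the line with at least 5 CPM, for 18 of the 19 members with a mean of at least 5 CPM in each of 4 lines, named where 1 cell held over 45% of the counts. Members found in most cells have no dominant cell, while Col1a1 and Col1a2 in 5ar2 and Col1a1 in AF32 rest on 1 cell for over 80% of their counts.

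Another 6 collagens were found in 10% or more of a line's cells at 5 CPM. Col7a1, the collagen of anchoring fibrils under the epidermis, stood at 5.90 and 4.56 CPM in the FS lines and at 2.16 and 1.23 CPM in AFX6 and AF32, where 1 cell held 98.6% of the AF32 counts. Col26a1 and Col4a5 were highest in AF32, at 7.70 and 5.27 CPM, and Col26a1 was at 0.0241 CPM in AFX6. Col6a1 was highest in 5ar2 at 5.91 CPM, Col5a2 in 5ar1 at 4.68 CPM and Col22a1 in AF32 at 4.55 CPM.

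Itgb1, the β1 chain shared by most matrix-binding integrins (chr8:128685654-128733200), was the leading receptor gene. It stood at 208 CPM in 5ar1 and 224 in 5ar2, and at 400 in AFX6 and 389 in AF32. Single cells ranged from 13.9 through a median of 193 to 760 CPM in 5ar1, from 6.06 through 184 to 960 in 5ar2, from 13.5 through 383 to 953 in AFX6 and from 2.45 through 319 to 1322 in AF32. Both EpiSC lines lay above both FS lines in sum and in median cell, although single cells of the groups overlapped. The mean was 216 ± 11.2 CPM (SD, n = 2 lines) in FS cells and 395 ± 7.66 CPM (SD, n = 2 lines) in EpiSCs, and the lower EpiSC line was 1.74-fold above the higher FS line. The log2 fold change was -0.88 (SE 0.157), with an edgeR adjusted p of 0.190 over all genes. The gene lies on chromosome 8, whose relative level was 1.20 in AF32 and 0.938 in AFX6, as given for Col4a2. With each level divided by that of the chromosome, a scaling chosen after seeing the data, Itgb1 stood at 222, 245, 426 and 323 CPM in 5ar1, 5ar2, AFX6 and AF32, and the lower EpiSC line was 1.32-fold above the higher FS line. It reached 5 CPM in every kept cell of 3 lines and in 98.8% of AF32 cells, and per kb it led the integrin β chains in 94.4%, 98.9%, 93.9% and 97.5% of cells. Itgb5, the β chain of the vitronectin receptor αvβ5, stood at 26.6, 23.6, 28.2 and 35.8 CPM, and its lower EpiSC line was 1.06-fold above the higher FS line. Its median cell was at 12.9, 7.64, 7.94 and 15.3 CPM, and 58.9%, 55.6%, 53.0% and 56.2% of cells reached 5 CPM. Neither measure of Itgb5 separated the groups.

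Itga5, Itga6 and Itga3 did not separate the groups as Itgb1 did. Itga5, the fibronectin receptor chain, was at 42.1 CPM in 5ar1 and 82.2 in 5ar2, and at 47.4 in AFX6 and 37.9 in AF32, and 65.6%, 80.0%, 54.5% and 46.2% of cells reached 5 CPM. The FS line 5ar2 stood apart, at 1.95-fold the level of the other FS line. Itga6, a laminin receptor chain, was at 55.0, 35.9, 33.7 and 39.1 CPM. Its level did not separate the groups, although 86.7% and 77.8% of FS cells reached 5 CPM against 57.6% and 61.2% of AFX6 and AF32 cells. Itga3, the other main laminin receptor chain, was at 34.7 and 23.9 CPM in the FS lines and differed between the EpiSC lines, at 67.7 CPM in AFX6 and 24.3 CPM in AF32. Itgav, the partner outside the name rule, had the same order of groups as Itgb1, at 8.37 and 4.44 CPM in the FS lines and at 13.4 and 15.5 CPM in AFX6 and AF32, with the lower EpiSC line 1.60-fold above the higher FS line. Per kb, the 11 α chains that pair with β1 summed to 22.1, 26.0, 26.7 and 18.6 CPM per kb. Itgb1 was 2.31 and 2.11 times this sum in 5ar1 and 5ar2, 3.67 times in AFX6 and 5.13 times in AF32. No gene in this ratio was divided by the level of its chromosome. With that division Itgb1 stood at 426 CPM in AFX6 and 323 CPM in AF32, as given above.

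The leading α chain of a cell differed between lines. Itga5 led in 38.9% of 5ar1 cells and 66.7% of 5ar2 cells, and in 33.3% and 31.2% of AFX6 and AF32 cells. Itga6 led in 38.9% of 5ar1 cells, 13.3% of 5ar2 cells, 13.6% of AFX6 cells and 30.0% of AF32 cells. Itga3 led in 36.4% of AFX6 cells and in 15.6% to 17.8% of the cells of the other lines.

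**Figure D4:**
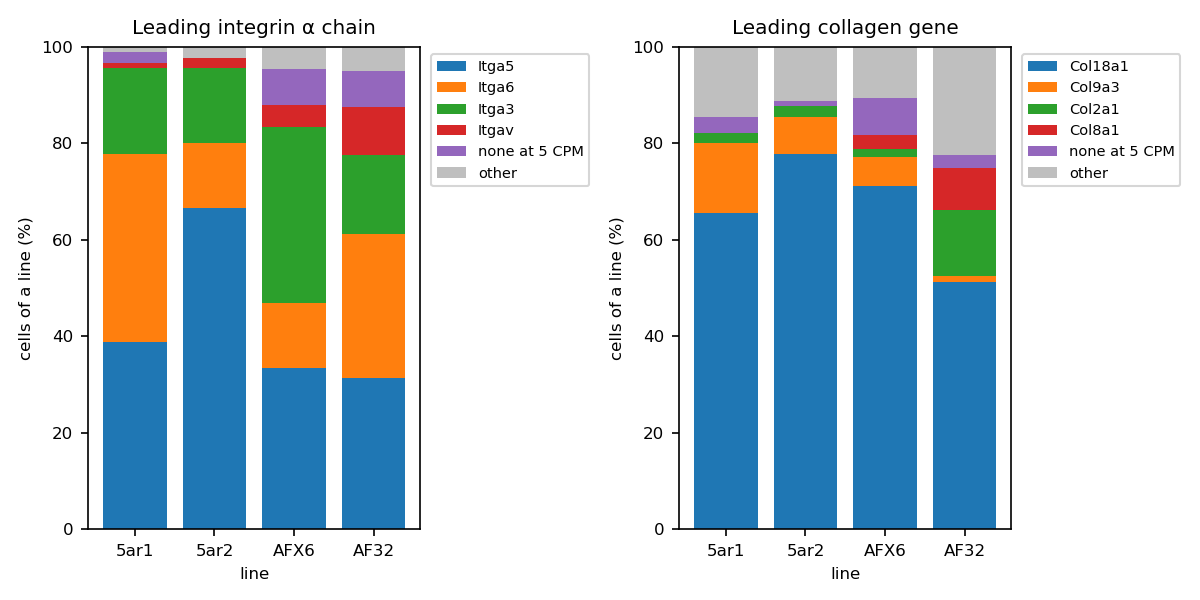
Share of the kept cells of each line in which a gene had the highest CPM per kb among the integrin α chains, Itgav included (left), and among the collagens (right). Itga5 leads in most 5ar2 cells, Itga3 takes its largest share in AFX6, and Col18a1 leads the collagens in more than 50% of the cells of every line.

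The other integrins were low and patchy. Itgb8, a β chain that pairs with αv, reached 6.45 CPM and 27.8% of cells in 5ar2 and at most 2.51 CPM elsewhere. Itgb4, which anchors epithelia to laminin with Itga6, was at 7.36 CPM in AFX6 and at 0.814 CPM or less in the other lines. Of the collagen receptor chains, Itga1 was at 2.56 and 3.17 CPM in the FS lines and at 0.806 and 1.82 CPM in AFX6 and AF32. Itga9, which binds tenascin, reached 13.3% of 5ar2 cells and 0 of 66 AFX6 cells, which allows a share of up to 5.44% by the exact interval.

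Ligand and receptor chains were then matched within cells. Of 38 complexes listed from their chains, 36 had every chain in the table and 10 of these were complete in 0 cells. α6β1 was complete in 86.7% of 5ar1 cells (95% exact interval 77.9% to 92.9%), 77.8% of 5ar2 cells, 57.6% of AFX6 cells (44.8% to 69.7%) and 60.0% of AF32 cells. α5β1 was complete in 65.6%, 80.0%, 54.5% and 46.2% of cells, and α3β1 in 53.3%, 54.4%, 62.1% and 28.8%. Itgb1 reached 5 CPM in every kept cell of 3 lines and in 98.8% of AF32 cells. The shares of the β1 pairs are thus nearly fixed by their α chains and are not separate results. The collagen receptor α1β1 was complete in 10.0% and 15.6% of FS cells and in 3.03% and 3.75% of AFX6 and AF32 cells, and α10β1 and α11β1 in 2.22% of cells or fewer. Each of the 3 integrin pairs found complete in 50% or more of a line's cells is thus a laminin or fibronectin receptor. The collagen receptor α2β1 was not assessed, because Itga2 is not analysed here. Fewer genes were detected per cell in the EpiSC lines, as given above, and the part of this in the shares was not tested. After each cell was thinned to 1000000 counts, which evens out counts only, α6β1 stood at 86.7%, 77.8%, 60.6% and 57.5%.

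Laminin-511, the ligand of α6β1 and α3β1, was complete in 43.3% of 5ar1 cells, 42.2% of 5ar2 cells, 50.0% of AFX6 cells and 18.8% of AF32 cells (95% exact interval 10.9% to 29.0%). A complete trimer needs every chain detected in the same cell, and the part of missed mRNA in these shares was not tested. AF32 was the low line although its Lama5 level was above that of both FS lines, and it was the line with the fewest cells at 5 CPM of Lamb1. Laminin-521, with Lamb2 in place of Lamb1, was complete in 20.0%, 15.6%, 25.8% and 15.0% of cells. Laminin-111 was complete in 5 cells of 5ar2, 1 cell of AFX6 and 0 cells of 5ar1 and AF32. Over the cells of 5ar1, 5ar2, AFX6 and AF32, Spearman's rho of Lama5 with Lamc1 was 0.02, 0.05, -0.26 and 0.07. It was 0.19, 0.06, 0.16 and -0.05 for Lama5 with Lamb1, and 0.13, 0.25, 0.09 and -0.02 for Lamb1 with Lamc1. These values describe cells that differ in library depth, and none passed 0.26 in size.

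**Figure D5:**
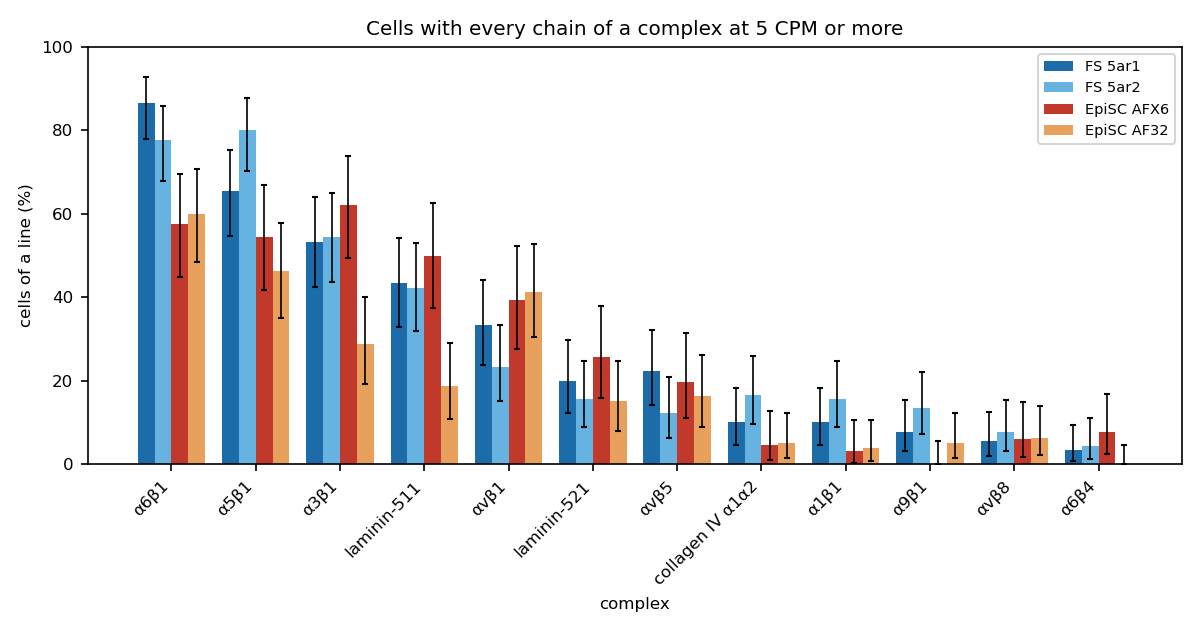
Share of the kept cells of each line with every chain of a complex at 5 CPM or more, for the 12 complexes with the highest share in any line. Bars are shares of 90, 90, 66 and 80 cells and error bars are 95% exact intervals that cover counting error only. α6β1 has the highest bar in 5ar1 and α5β1 in 5ar2, and AF32 has the lowest bars for α3β1 and laminin-511.

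The EpiSC lines differed from each other in medium and line. At 2-fold or more, 3 of 19 members were higher in AF32 (Col2a1, Col4a2 and Col8a1) beside 11.9% of all 10120 genes, and 4 were higher in AFX6 (among them Col1a1, Itga3 at 2.78-fold and Lamb1 at 2.7-fold) beside 7.09%. The FS lines, which share a medium, had 0 members at least 2-fold higher in 5ar1 beside 3.06% of genes, and 6 members (among them Col1a1, Col1a2, Col2a1, Col5a1 and Col8a1) at least 2-fold higher in 5ar2 beside 1.87%. Without the highest cell of each gene and line this became 4 (among them Col2a1, Col5a1 and Col8a1), with 17 members left at a mean of 5 CPM. Without the 6 cells low in Pou5f1 it became 3 (among them Col2a1 and Col5a1), also of 17. Neither of these counts has a share of all genes given beside it. No member had both FS lines at least 2-fold above both EpiSC lines, beside 2.27% of genes. Without regard to size, both EpiSC lines lay above both FS lines for 6 members (Lama5, Lamc1, Lamb2, Itgb1, Itgb5 and Col8a1) beside 27.5% of genes, and both FS lines above both EpiSC lines for 2 (Col4a1 and Col9a3) beside 26.9%. Both shares of the 19 members, 31.6% and 10.5%, are read against that background, the first near it and the second below it. An exact two-sided permutation of 2 lines against 2 cannot give a p below 0.333.

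Genes that work with the members were taken from lists of the pathway. Their counts without regard to size stand beside the 27.5% of all genes with both EpiSC lines higher and the 26.9% with both FS lines higher, and nothing particular to a list is read from them. Of 17 enzymes and chaperones that make and cross-link collagen, 12 had a mean of at least 5 CPM, of which 6 lay higher in both EpiSC lines and 1 higher in both FS lines. P4ha1 and P4ha2, the catalytic subunits of collagen prolyl 4-hydroxylase, were at least 2-fold higher in both EpiSC lines, beside 3.26% of all genes: P4ha1 stood at 128, 111, 433 and 283 CPM and P4ha2 at 34.5, 29.5, 77.6 and 97.2 CPM in 5ar1, 5ar2, AFX6 and AF32. Serpinh1, the collagen chaperone Hsp47, went the other way, at 217 and 166 CPM in the FS lines and 111 and 141 CPM in AFX6 and AF32. Of 14 other matrix proteins, 8 had a mean of at least 5 CPM, 3 lay higher in both EpiSC lines and 1 in both FS lines. Among them Fn1, the fibronectin that α5β1 binds, stood at 16.4, 32.8, 40.7 and 19.1 CPM, and Nid2, which links laminin to collagen IV, at 75.6, 41.1, 124 and 46.2 CPM. The 5ar2 sum of Fn1 includes the cell low in Pou5f1 described above, which had 1405 CPM of it. The Fn1 value of 5ar2 without that cell is not given here. Of 9 other matrix receptors, 7 passed that level and 2 lay higher in both EpiSC lines, and Bcam, a receptor of laminin α5, was highest in AFX6 at 250 CPM against 36.4 CPM in AF32. Of 16 genes of the integrin adhesion complex in the table, 14 passed that level, 4 lay higher in both FS lines and 1 in both EpiSC lines, and the scaffold Bcar1 stood at 304 and 301 CPM in the FS lines and at 202 and 114 CPM in AFX6 and AF32.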

How the data were processed

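Raw counts were used as deposited. The authors made them by alignment to GRCm38.p6 with STAR 2.7.3a and counting of uniquely mapped reads per gene with featureCounts 2.0.0, per the labels and the methods of the study. Strand was not used in sequencing full-length cDNA, so reads of overlapping genes on opposite strands cannot be told apart. The authors also deposited normalized values, which are a score corrected for depth and given in whole numbers, used only as an alternative; 56 of the 73 members are in that table of 23574 genes.

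Cells were assigned to lines by their labels, and those with at least 3000000 counts were kept. The kept cells' counts were summed by line and divided by their total to give CPM. Smart-seq2 carries no molecular identifiers and reads are not independent molecules, so Clopper-Pearson 95% intervals (scipy 1.17.1) and the limit of 3 counts that a count of 0 allows cover counting error only. Cells of a line are not replicates. No 2 cells had identical counts (0 found). Between lines, edgeR 4.0.16 was run (quasi-likelihood test after TMM and filterByExpr, Benjamini-Hochberg adjustment over all genes) in R 4.3.3. The code was tried on simulated data, with recovery required only at a dispersion lower than the 0.653 of these data. That trial does not show how large a change could be found here. Alternatives used DESeq2 1.42.0, limma 3.58.1 on log2(mean CPM per cell + 1), other filters, scalings and depths, cells thinned to 1000000 counts, and each line left out. Positions, exon lengths and gene types came from GENCODE M21 on GRCm38, whereas the study counted on an Ensembl annotation. Levels per chromosome used genes with at least 20 CPM. Plots were made with matplotlib 3.10.9.

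Members with a mean of at least 5 CPM, or called by the test, are named with their values, and others where 10% or more of a line's cells reach 5 CPM, except 1 member whose values are not reported here. The members, gene lists and tests were chosen with earlier results of these data known.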

Additional observations from a re-analysis of the deposited data

How the results depend on the processing

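No gene passed edgeR (0), whereas DESeq2, run on all 31617 genes, called 1806, of them 5 of the 73 members. By limma, 1 gene and 0 members were called. The other alternatives of that test, each line left out included, called 0 genes and 0 members. With a mean of 1 CPM in place of 5, 40 members entered, and the counts at 2-fold became 1 with both FS lines higher (Col7a1), 2 with both EpiSC lines higher (Col8a1 and Col24a1), 11 higher in AF32, 10 higher in AFX6, 4 higher in 5ar1 and 15 higher in 5ar2. With cells of at least 1000000 counts, 2 members (Col8a1 and Lama5) were at least 2-fold higher in both EpiSC lines. Without the highest cell of each gene and line, an alternative chosen after seeing the data, 1 member (Col9a3) was at least 2-fold higher in both FS lines. Without the 6 cells under 5 CPM of Pou5f1, also chosen after seeing the data, 3 members were at least 2-fold higher in 5ar2. The cause was not tested, beyond the larger number of members under the lower mean. Shares over all genes are not given for these alternatives, so their counts are not read against a background. Of 180 log2 fold changes of named members under alternatives, 171 kept their sign. The other 9 reversed when 1 line was left out. Over the 4 lines left out, the log2 fold change (FS minus EpiSC) ran from -0.44 to 0.27 for Col18a1, from -0.96 to 0.52 for Lamb1 and from -1.24 to 0.28 for Itga3, each reversed without AFX6. It ran from -2.14 to 0.19 for Col2a1 (reversed without AF32), from -0.043 to 0.59 for Itga6 and from -2.18 to 0.41 for Col1a2 (without 5ar1), from -0.033 to 0.92 for Itga5 (without 5ar2), and from -1.62 to 0.46 for Col5a1 (without 5ar1, and 0.02 without AF32). Shares of cells used 1 CPM, 10 CPM and thinned cells as alternatives, and 10 members reached 50% or more of a line's cells under each. No paired analysis was possible because the numbers in the labels name single wells, not a culture or day that lines share, and counts were summed over the cells of a line.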
